A study of Drosophila melanogaster with 4 samples.

Results

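Glutathione transferase (Gst) and UDP-glycosyltransferase (Ugt) transcripts were measured in the fat body, the larval organ of nutrient storage and detoxification, of Drosophila melanogaster. Members were the genes whose symbol in the deposited tables begins with Gst or Ugt, plus CG5724, which now carries the name Ugt37A2. They numbered 40 of 13990 symbols, with 10 GstD genes, 10 GstE genes, GstS1 as the only other Gst gene and 19 Ugt genes. The symbol Ugt on its own belongs to Uggt, which re-glucosylates misfolded glycoproteins in the endoplasmic reticulum and is no detoxification enzyme, so the Ugt genes are also given without it.

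Fat bodies came from yw larvae of the third instar at 110 h after egg laying, with 10 fat bodies pooled per sample. In the ND-75-i group the driver dMef2-Gal4 expressed UAS-ND-75-RNAi, directed against a core subunit of mitochondrial complex I, and in the Con group it expressed UAS-white-RNAi, directed against an eye pigment transporter gene. dMef2-Gal4 is a muscle driver, so the comparison asks how gene expression in one tissue differs when complex I is perturbed in another, and each group had 2 samples. Values are FPKM, fragments per kilobase of transcript, scaled by library size. In each pair of values replicate 1 stands before replicate 2.

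Glutathione transferases couple glutathione to electrophilic compounds, among them insecticides and products of lipid peroxidation, and so make them soluble. The Delta (GstD) and Epsilon (GstE) classes are the expanded insect classes, and most of their genes lie in tandem arrays, whereas GstS1 is the single Sigma class gene of the fly. UDP-glycosyltransferases attach a sugar, in insects mainly glucose, from a UDP-sugar to small lipophilic molecules. Both families act after the cytochromes P450, and the transcription factor cnc with its partner maf-S, held in check by Keap1, drives several Gst genes, with GstD1 the usual reporter.

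The 4 libraries held 849472 to 957235 summed FPKM, and the bounds deposited beside each value correspond to 9573000 to 11877000 fragments. ND-75, listed as ND75, was at 94.8 and 79.0 FPKM in ND-75-i and 46.6 and 43.9 FPKM in Con fat bodies, which does not measure the knockdown in muscle. The fat body genes Rfabg (apolpp) and Lsd-1 were abundant in all 4 libraries (Rfabg 2940 and 3098 FPKM in ND-75-i, 2688 and 2237 FPKM in Con). Fbp1, a fat body gene of the late larva, was at 22.5 and 393 FPKM in ND-75-i and 14971 and 17897 FPKM in Con (limma adjusted p = 0.0595). Fbp2 was at 6380 and 16337 FPKM in ND-75-i and 29137 and 33073 FPKM in Con, while Lsp1beta and Lsp1gamma in all libraries and Lsp2 in Con were listed at 0, a failed estimate. Summed levels of other cell types' markers moved with the groups in part, and their part in the results was not tested. Salivary gland markers (10, led by Sgs7 and Sgs3) summed to 38372 and 29693 FPKM in ND-75-i and 85656 and 39874 FPKM in Con, although ng1, ng2 and ng3 among them had higher values in ND-75-i. Malpighian tubule markers (6, led by Irk3 and Uro) summed to 38.9 and 40.6 FPKM in ND-75-i and 50.3 and 47.2 FPKM in Con. Muscle markers (12, led by Act57B and Mlc1) summed to 64.5 and 46.8 FPKM in ND-75-i and 32.9 and 41.2 FPKM in Con. The groups were apart in these 3 sums. Of the 4 tested tubule markers, Uro was lower with groups apart and 3 overlapped. Of the 12 muscle markers, 8 had both ND-75-i values above Con, 2 had both below and 2 overlapped. Among all genes tested, 53.7% had both above and 21.7% had both below. Haemocyte markers (8, led by CG8193 and crq) summed to 66.2 and 85.8 FPKM in ND-75-i and 98.96 and 233.8 FPKM in Con. Gonad markers (8, led by betaTub85D and dj) summed to 41.2 and 9.67 FPKM in ND-75-i and 83.7 and 68.2 FPKM in Con, and epidermis markers (5, led by Lcp3 and Lcp4) to 6.23 and 12.5 FPKM in ND-75-i and 17.2 and 59.2 FPKM in Con. These were lower in both ND-75-i libraries. Midgut markers (8, led by Jon65Aiv and Jon99Cii) overlapped between groups in sum, at 559 and 1485 FPKM in ND-75-i and 246 and 1953 FPKM in Con, and Jon99Cii alone was at 86.1 and 110.4 FPKM in ND-75-i and 0.114 and 0.223 FPKM in Con. Oenocyte markers (4, led by Cyp4g1 and CG17374) overlapped as well, at 5.18 and 33.5 FPKM in ND-75-i and 10.995 and 8.39 FPKM in Con. Apart from Lsp1beta and Lsp1gamma, 0 of the markers were at 0 in all 4 libraries. In bulk samples fewer cells of a type and less RNA per cell cannot be told apart.

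Of the 40 genes, 29 reached 1 FPKM in at least 2 libraries and were tested within a fit over 10024 genes. At a limma adjusted p below 0.05, 7 were higher in ND-75-i, against 7.76% of all genes tested, and 4 were lower, against 1.09%. Calls in either direction thus took in 11 of 29 members, where the share over all genes was 8.85%. The 7 higher members include CG5724, added by name and below 1 FPKM in both Con libraries. Before adjustment, 13 members were higher and 8 lower at p under 0.05, where 29.4% and 7.72% of all genes were. Groups were apart for 22 members (75.4% of all genes), of which 14 had both ND-75-i libraries on top (53.7%) and 8 had both at the bottom (21.7%). The median log2 change was 0.32 over the 29 members and 0.25 over all genes tested. By class it was 1.48 for 10 Ugt genes, 0.32 for 9 GstE genes and -0.52 for 9 GstD genes. These counts and medians are descriptions, with no test of one class against another.

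Rescaling the libraries by median ratios moved the median of all genes tested to -0.01 and the class medians to 1.24 for Ugt, 0.08 for GstE and -0.79 for GstD. It left 5 higher and 3 lower members, where 3.46% of all genes were higher, 1.37% lower and 4.83% either. Quantile normalization left 7 higher and 3 lower members (5.91%, 3.72% and 9.63% of all genes), and voom weights on the implied fragments 5 higher and 2 lower (5.0%, 0.928% and 5.93%). The share of higher genes among all calls was 87.7% with the deposited values, 71.7% with the median-ratio factors and 61.3% with quantile normalization. When any 1 library was left out, limma called 0 of the 29 members and 0 genes in all, and 10 to 12 members were higher and 4 to 8 lower at an unadjusted p under 0.05. Such a fit has 1 residual degree of freedom and called no gene of any kind, so it says nothing of how stable a single call is. The log2 changes ran between -1.01 and -0.75 for GstD1, 1.26 and 1.61 for GstE1 and 4.25 and 4.41 for CG5724. They ran more widely for GstD7, between 2.56 and 3.24, and for GstD4, between -2.15 and -1.70. The signs of the 11 are fixed by groups that do not overlap.

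**Figure D1:**
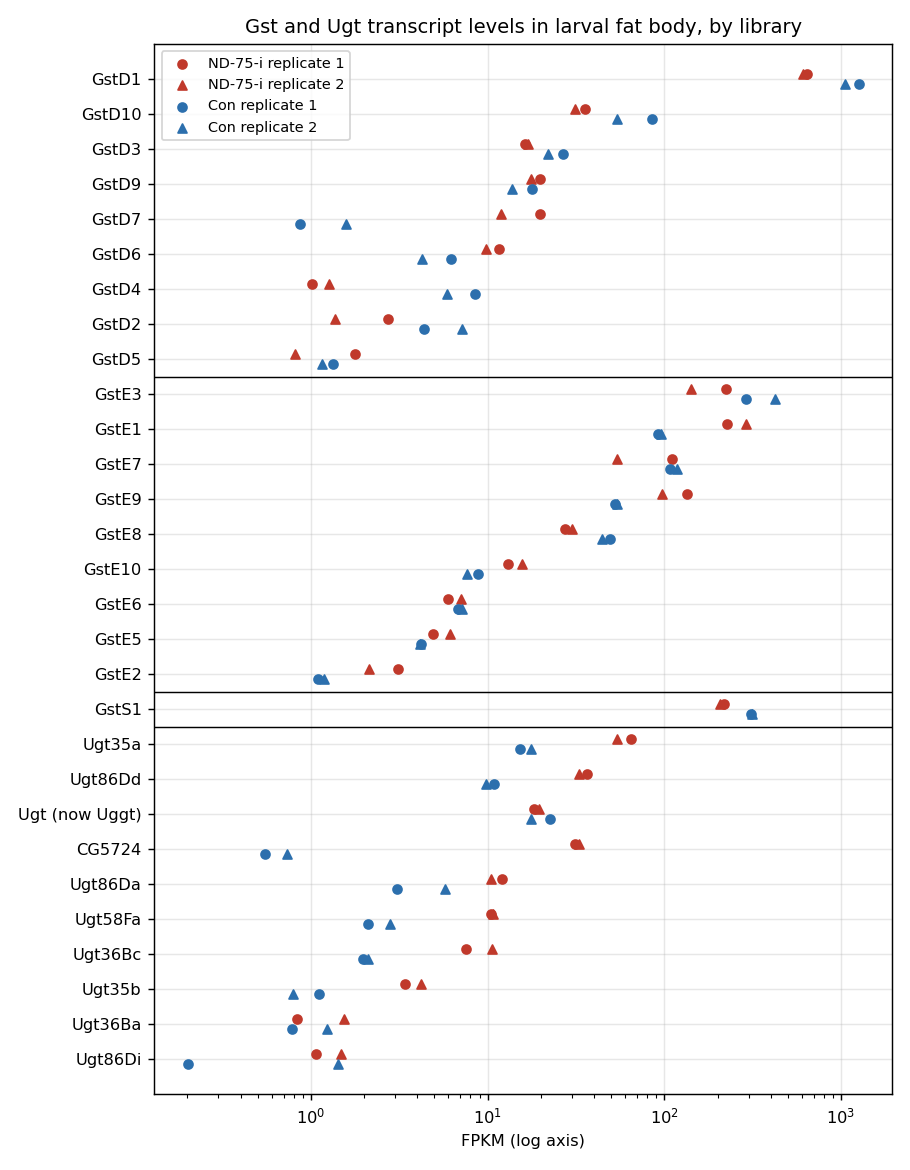
FPKM (log axis) of the 29 tested genes in each library, by class from top to bottom (GstD, GstE, GstS1, Ugt), with circles for replicate 1 and triangles for replicate 2. GstD1 is the highest gene in every library (639.8 and 609 FPKM in ND-75-i, 1262 and 1051 FPKM in Con), and the groups of CG5724 and GstD7 lie farthest apart.

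Among the 19 Ugt members, 5 of 10 tested genes rose and 0 fell. Before adjustment 0 of them were lower at p under 0.05, with limma on the FPKM or with voom weights. Ugt genes listed under other symbols are given further below, and of those Ugt36D1 fell. Groups were apart for 7 of the 10 tested members, with ND-75-i on top in each. That share is not far from the 53.7% of all genes tested, whereas the 5 called compare with 7.76%. The 5 include CG5724, which the member rule added by name. It was below 1 FPKM in both Con libraries, so it was tested only through its ND-75-i values. Without Uggt the median log2 change was 1.66 over 9 genes, or 3.15-fold, and after median-ratio rescaling it was 1.38. The summed level of these 18 genes was 169 and 161 FPKM in ND-75-i and 36.3 and 42.5 FPKM in Con. Midgut and Malpighian tubule also express Ugt genes, and the part of these tissues in the Ugt values was not tested. Tubule markers summed lower in both ND-75-i libraries, but of the 4 tested only Uro was lower with groups apart, and 3 overlapped. The untested tubule markers Irk2 and Lkr, below 1 FPKM, were higher in both ND-75-i libraries. Midgut sums overlapped, while the midgut gene Jon99Cii was higher in both ND-75-i libraries.

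CG5724 (Ugt37A2), on chromosome 3R at 8565384 to 8567139 (coordinates as deposited, with a genome build that is not given in the sources used here), showed the largest difference of the members. It stood at 31.2 and 32.7 FPKM in ND-75-i and 0.548 and 0.733 FPKM in Con. Both ND-75-i libraries lay far above both Con libraries, on an implied 705 and 672 fragments in ND-75-i and 11 and 15 in Con. The deposited lower bounds in ND-75-i were 28.8 and 30.2 FPKM, and the upper bounds in Con 0.879 and 1.11 FPKM. The ratio of the means was 49.8, and the log2 change on the log2(FPKM + 1) scale, which understates the change of low genes, was 4.33 (SE 0.152, limma adjusted p = 0.0146). With a pseudocount of 0.1 it was 5.45 and with a pseudocount of 5 it was 2.71.

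Ugt35a (now Ugt35A1) had the highest mean of the 19 Ugt members over the 4 libraries, although the gene listed as Ugt (Uggt) exceeded it in both Con libraries. Ugt35a held 34.6% and 30.04% of the summed FPKM of these members in ND-75-i and 26.1% and 29.1% in Con. Its values were 64.8 and 54.2 FPKM in ND-75-i and 15.3 and 17.5 FPKM in Con, a log2 change of 1.79 (SE 0.142, limma adjusted p = 0.0188). Ugt86Dd (now Ugt35C1), a gene linked to nicotine resistance in Drosophila, was at 36.4 and 33.0 FPKM in ND-75-i and 10.9 and 9.74 FPKM in Con, a log2 change of 1.66 (SE 0.121, adjusted p = 0.0185). In both genes the replicates of a group lay close together and the groups were well apart.

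Ugt58Fa (now Ugt317A1), on chromosome 2R, was at 10.4 and 10.7 FPKM in ND-75-i and 2.10 and 2.79 FPKM in Con (log2 change 1.75, SE 0.180, limma adjusted p = 0.0235). Ugt36Bc (now Ugt37D1), on 2L, was at 7.53 and 10.6 FPKM in ND-75-i and 1.97 and 2.10 FPKM in Con (log2 change 1.71, SE 0.221, adjusted p = 0.0331). Groups were apart in both, and the Ugt36Bc call did not survive median-ratio rescaling (adjusted p = 0.0588) or voom weights (0.0712). These genes rest on an implied 197 to 251 fragments per library in ND-75-i and 44 to 59.5 in Con.

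Of the other tested Ugt genes, Ugt35b was at 3.42 and 4.21 FPKM in ND-75-i and 1.12 and 0.796 FPKM in Con (log2 change 1.30, limma adjusted p = 0.051). Ugt86Da was at 12.1 and 10.5 FPKM in ND-75-i and 3.06 and 5.76 FPKM in Con (1.23, adjusted p = 0.079). Their groups did not overlap, yet neither passed over all genes, and Ugt35b passed with a pseudocount of 5 (adjusted p = 0.0456). Ugt86Di (1.07 and 1.48 FPKM in ND-75-i, 0.201 and 1.43 FPKM in Con) and Ugt36Ba (0.837 and 1.54 FPKM in ND-75-i, 0.786 and 1.23 FPKM in Con) were low and their groups overlapped. Uggt, listed as Ugt, was at 18.2 and 19.5 FPKM in ND-75-i and 22.4 and 17.7 FPKM in Con (log2 change -0.08, 95% interval -0.51 to 0.36, adjusted p = 0.723).

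The Ugt86D region holds 10 of the 19 genes within 51057 bases of 3R, from 6952317 to 7003373, and 13 listed genes in all. There the levels differed widely between neighbours. Ugt35a, Ugt86Dd, Ugt86Da and Ugt35b averaged 2.38 FPKM or more over the 4 libraries, Ugt86Di averaged 1.05 FPKM, and the other 5 (Ugt86Dc, Ugt86De, Ugt86Dg, Ugt86Dh and Ugt86Dj) averaged 0.307 FPKM or less.

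**Figure D2:**
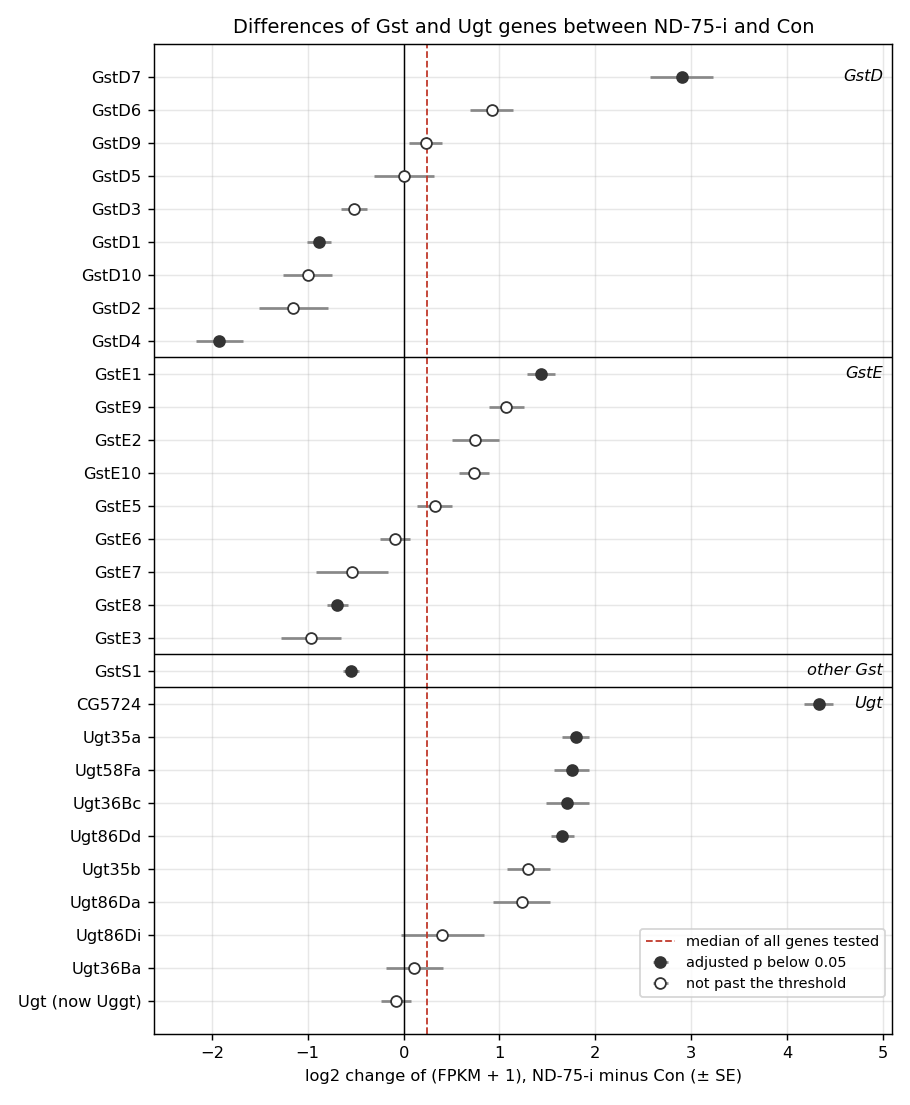
Log2 change of (FPKM + 1), ND-75-i minus Con, with its standard error, for each tested gene by class, where filled points have an adjusted p below 0.05 and the dashed line marks the median of all genes tested (0.25). The Ugt genes run from -0.08 to 4.33, whereas the GstD genes span -1.92 to 2.90 and the GstE genes -0.96 to 1.43.

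Among the Delta class, 2 of 9 tested genes fell and 1 rose, where 1.09% of all genes tested fell and 7.76% rose. GstD1, which also degrades DDT, was the most abundant member of all, ranked 159 of 13882 genes by mean FPKM, and held 85.5% and 87.0% of the summed GstD level in ND-75-i and 89.3% and 90.5% in Con. It stood at 639.8 and 609 FPKM in ND-75-i and 1262 and 1051 FPKM in Con, and the groups were well apart. The means were 624 ± 21.8 FPKM in ND-75-i and 1156 ± 149.6 FPKM in Con (SD, n = 2), the log2 change -0.88 (SE 0.128, limma adjusted p = 0.0389), and after median-ratio rescaling -1.17 (adjusted p = 0.0477). The 10 Delta genes together summed to 749 and 699.9 FPKM in ND-75-i and 1413 and 1160.4 FPKM in Con.

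GstD4 was at 1.02 and 1.26 FPKM in ND-75-i and 8.49 and 5.93 FPKM in Con. Both ND-75-i values were below both Con values, on an implied 8 and 9 fragments against 59 and 42. The log2 change was -1.92 (SE 0.243, limma adjusted p = 0.0322), past the threshold except after quantile normalization (0.0545) and with voom weights (0.0808), among the scalings tried.

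GstD7 moved the other way, at 19.7 and 11.9 FPKM in ND-75-i and 0.873 and 1.57 FPKM in Con. The ND-75-i replicates differed from each other, yet both lay above Con, on an implied 153 and 84 fragments against 6 and 11. The ratio of the means was 13.0 and the log2 change 2.90 (SE 0.328, limma adjusted p = 0.0268, and 0.0748 with voom weights).

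Over the 9 tested Delta genes, both ND-75-i values lay below Con for 5 and above for 2, against 21.7% and 53.7% of all genes. Of the 6 not called, 3 had both ND-75-i values below Con without passing over all genes. GstD10 was at 35.8 and 31.3 FPKM in ND-75-i and 85.3 and 53.9 FPKM in Con (limma adjusted p = 0.0841). GstD3 was at 16.4 and 16.9 FPKM in ND-75-i and 26.7 and 22.0 FPKM in Con (adjusted p = 0.0898), and GstD2 at 2.75 and 1.38 FPKM in ND-75-i and 4.36 and 7.18 FPKM in Con (0.113). GstD6 lay above Con, at 11.6 and 9.73 FPKM in ND-75-i and 6.17 and 4.27 FPKM in Con (0.0776).

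GstD9 (19.7 and 17.5 FPKM in ND-75-i, 17.9 and 13.7 FPKM in Con) and GstD5 (1.78 and 0.817 FPKM in ND-75-i, 1.34 and 1.15 FPKM in Con) overlapped between groups. The 95% intervals of their log2 changes were -0.25 to 0.71 and -0.86 to 0.86, and both changes turned negative after median-ratio rescaling. The listed spans of GstD9 and GstD1 share 18 bases, and the sources used here do not say whether strand was used in counting.

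The 10 Delta genes lie side by side within 16042 bases of 3R, from 8190496 to 8206537, with no other listed gene between them. In chromosomal order, GstD10, GstD1, GstD2, GstD3 and GstD4 had lower values in ND-75-i, with GstD9 the exception among the first 6 genes. GstD5, next in line, had a log2 change of 0.00, and GstD6 and GstD7 had higher values, so that GstD4 and GstD7, with 2 genes between them, were called in opposite directions. Reads shared between near-identical copies could be divided among these paralogs in counting, and how such reads were treated is not given in the sources used here.

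**Figure D3:**
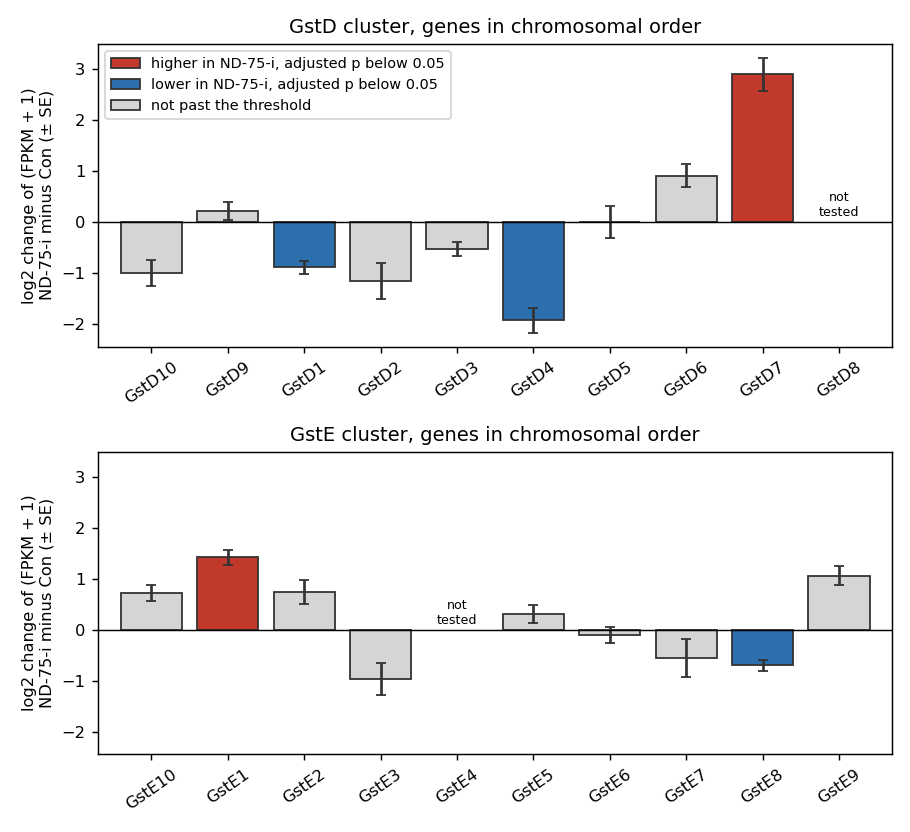
Log2 change of (FPKM + 1), ND-75-i minus Con, with its standard error, for the GstD and GstE genes in chromosomal order, where coloured bars have an adjusted p below 0.05. In the GstD array the called falls are GstD1 and GstD4 and the called rise is GstD7, and in the GstE array GstE1 rose and GstE8 fell.

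Among the 10 GstE members 1 of 9 tested genes rose and 1 fell, where 7.76% of all genes tested rose and 1.09% fell. The Epsilon genes GstE11 to GstE14, listed under other symbols, are not among them, and GstE12 exceeded each of the 10 in every library. The 10 members summed to overlapping levels, 751 and 643 FPKM in ND-75-i and 612 and 756 FPKM in Con. GstE1 was at 227 and 289.8 FPKM in ND-75-i and 92.7 and 96.2 FPKM in Con, so that both ND-75-i libraries exceeded both Con libraries by more than 2-fold. The log2 change was 1.43 (SE 0.146, limma adjusted p = 0.0235), and 1.14 after median-ratio rescaling, where it missed the threshold (0.0586). GstE8 was at 27.4 and 30.0 FPKM in ND-75-i and 49.3 and 44.5 FPKM in Con, with groups apart and a log2 change of -0.69 (SE 0.109, adjusted p = 0.0437, then 0.0579 after median-ratio rescaling and 0.0667 with voom weights).

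GstE3 was the most abundant of the 10 GstE members in Con, and held 29.9% and 22.1% of their summed level in ND-75-i and 47.2% and 56.0% in Con. It stood at 225 and 142 FPKM in ND-75-i and 289 and 423 FPKM in Con, apart between groups but widely spread within them (log2 change -0.96, SE 0.315, limma adjusted p = 0.119). GstE9 was at 134 and 96.5 FPKM in ND-75-i and 52.9 and 54.3 FPKM in Con (1.07, SE 0.185, adjusted p = 0.0507, and 0.0472 with a pseudocount of 5). GstE7 was at 110.4 and 53.7 FPKM in ND-75-i and 107 and 118 FPKM in Con, where ND-75-i replicate 2 alone lay below the rest (adjusted p = 0.322).

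GstE10 (13.1 and 15.7 FPKM in ND-75-i, 8.80 and 7.68 FPKM in Con), GstE2 (3.11 and 2.14 FPKM in ND-75-i, 1.10 and 1.18 FPKM in Con) and GstE5 (4.89 and 6.09 FPKM in ND-75-i, 4.20 and 4.12 FPKM in Con) had both ND-75-i values above Con without passing. Their limma adjusted p were 0.0676, 0.118 and 0.239. Over the 9 tested GstE members, both ND-75-i values lay above Con for 5, near the 53.7% of all genes, and below for 2 (21.7%). GstE6 overlapped, at 5.95 and 7.09 FPKM in ND-75-i and 6.84 and 7.12 FPKM in Con, with a 95% interval of -0.53 to 0.35 for its log2 change.

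The 10 GstE members also form an array with no other listed gene inside it, 13198 bases of 2R from 14284143 to 14297340. GstE10, GstE1 and GstE2 at one end had higher values in ND-75-i, GstE3 beside them lower ones, and GstE8 and GstE9 at the other end differed in opposite directions. The listed span of GstE9 shares 45 bases with that of imd, which was at 16.6 and 17.2 FPKM in ND-75-i and 15.2 and 14.5 FPKM in Con.

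GstS1, the Sigma class gene, known as an abundant protein of flight muscle that acts on lipid peroxidation products, fell. Muscle markers were mixed, with 8 of 12 above Con in both ND-75-i libraries, 2 below and 2 overlapping, and limma called 0. Their part in the GstS1 values was not tested. GstS1 was at 218 and 207 FPKM in ND-75-i and 308 and 315 FPKM in Con, with replicates close to each other and the groups apart. The log2 change was -0.55 (SE 0.0803, limma adjusted p = 0.0392), and -0.84 after median-ratio rescaling (adjusted p = 0.0302).

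**Figure D4:**
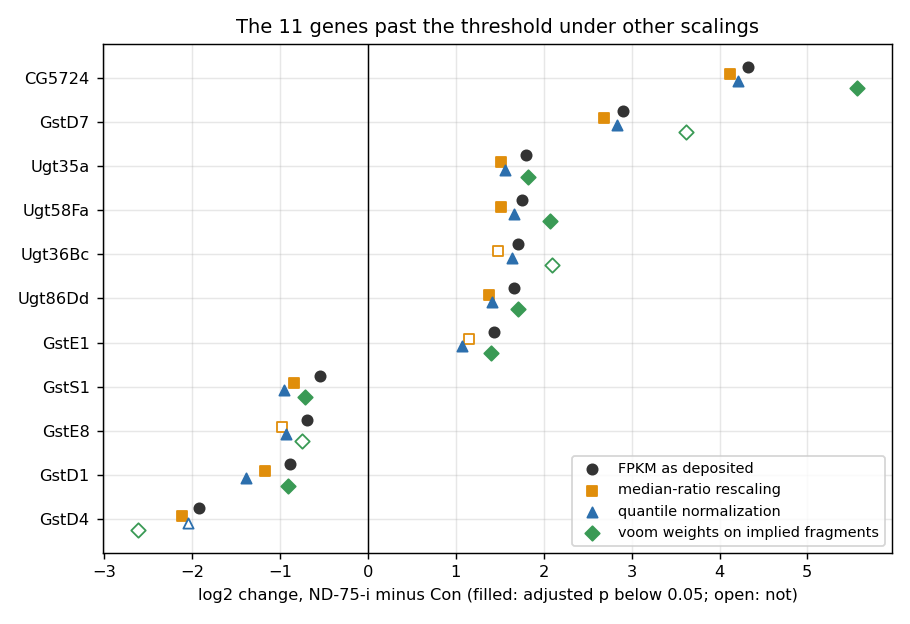
Log2 change, ND-75-i minus Con, of the 11 called genes with the FPKM as deposited, after median-ratio rescaling, after quantile normalization and with voom weights on the implied fragments, where open symbols missed an adjusted p of 0.05. All 11 keep their sign in the 4 settings, and CG5724, Ugt35a, Ugt58Fa, Ugt86Dd, GstS1 and GstD1 are filled in each.

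Ratios between genes of the same library are not changed by a single scaling factor per library, though quantile normalization can change them. Such ratios of the deposited FPKM also differed between groups. The pairs were chosen after their values were seen, and 2 libraries against 2 allow no two-sided permutation p below 1 in 3, so they are descriptions. GstD1 was 2.82 and 2.10 times GstE1 in ND-75-i and 13.6 and 10.9 times GstE1 in Con. Within the Delta array GstD1 was 55.3 and 62.6 times GstD6 in ND-75-i and 205 and 246 times in Con. Within the Epsilon array GstE3 was 1.67 and 1.47 times GstE9 in ND-75-i and 5.45 and 7.80 times in Con. In each of these ratios both ND-75-i libraries lay below both Con libraries. The ratio of Ugt35a to GstD1 was 0.101 and 0.089 in ND-75-i and 0.0121 and 0.0167 in Con. In contrast, the ratio of GstD1 to GstE3, the genes with the highest 4-library mean in each array, was 2.85 and 4.29 in ND-75-i and 4.37 and 2.48 in Con, which overlap.

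**Figure D5:**
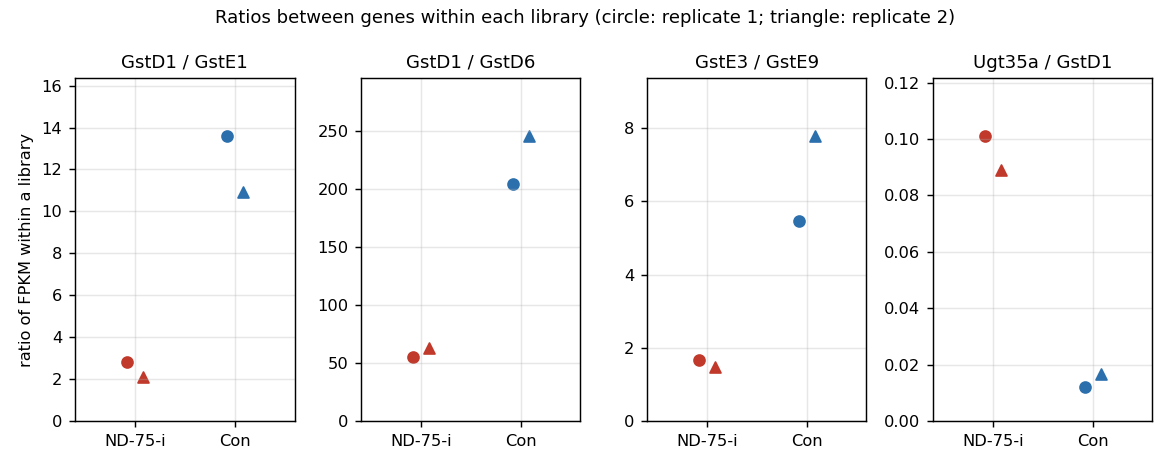
Ratios of the FPKM of 2 genes within each library, with ND-75-i to the left of Con in each panel, circles for replicate 1 and triangles for replicate 2. GstD1 over GstE1 is 2.82 and 2.10 in ND-75-i and 13.6 and 10.9 in Con, and Ugt35a over GstD1 is 0.101 and 0.089 in ND-75-i and 0.0121 and 0.0167 in Con.

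Another 11 members were not tested, and averaged at most 0.307 FPKM. They were GstD8, GstE4 and 9 Ugt genes. Ugt36Bb, Ugt37a1 and Ugt86Dg were listed at 0 in all 4 libraries. GstD8 had 1 implied fragment, in Con replicate 1, and GstE4 had 1 in ND-75-i replicate 2 and 1 in Con replicate 2. Ugt86Dh was at 0.628 and 0.415 FPKM in ND-75-i and 0.0472 and 0.139 FPKM in Con, on 15 and 9 against 1 and 3 fragments. Ugt86Dc was at 0.241 and 0.159 FPKM in ND-75-i and listed at 0 in both Con libraries. Ugt37b1, Ugt37c1, Ugt86De and Ugt86Dj stood on at most 11 fragments in any library.

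Family members that the deposited tables list under other symbols were looked at as well. Of 14 such Gst genes, 13 were tested, 2 rose and 0 fell, with a median log2 change of 0.42, where 7.76% of all genes rose, 1.09% fell and the median was 0.25. The Zeta class gene GstZ2, listed as CG9363, was at 28.3 and 20.3 FPKM in ND-75-i and 7.39 and 5.67 FPKM in Con (log2 change 1.74, limma adjusted p = 0.0341). GstE13, listed as CG11784, was at 37.1 and 37.6 FPKM in ND-75-i and 19.98 and 22.1 FPKM in Con (0.80, adjusted p = 0.0331). Both calls were lost after median-ratio rescaling (0.0579 and 0.0783), under which limma called 0 of the 13 (2 were higher and 1 lower before adjustment, at p under 0.05), and with voom weights (0.237 and 0.0517). GstE12, listed as CG16936, the most abundant of them, was at 501 and 508 FPKM in ND-75-i and 457 and 524 FPKM in Con, and overlapped.

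Of 17 Ugt genes listed under other symbols, 8 were tested, 2 rose and 1 fell, where 7.76% of all genes rose and 1.09% fell. The median log2 change was 0.15, beside 1.48 for the 10 tested members and 0.25 for all genes. Those 10 include CG5724, which the member rule added by name. Ugt37A3, listed as CG5999, lies 540 bases beyond CG5724 on 3R and is the next listed gene there. It was at 92.9 and 108.4 FPKM in ND-75-i and 13.4 and 16.1 FPKM in Con (log2 change 2.69, SE 0.144, limma adjusted p = 0.0182). Ugt49B1, listed as CG4302, was at 39.6 and 35.6 FPKM in ND-75-i and 11.6 and 14.97 FPKM in Con (1.44, adjusted p = 0.0264). Ugt36D1, listed as CG17323, fell, at 3.96 and 3.65 FPKM in ND-75-i and 11.9 and 15.2 FPKM in Con (-1.59, SE 0.181, adjusted p = 0.0271). These 3 calls held after both rescalings and with voom weights, so a rise was not shared by every measured Ugt gene. Ugt301D1, listed as CG10178, was at 37.6 and 43.3 FPKM in ND-75-i and 38.3 and 37.2 FPKM in Con and overlapped.

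Of 7 other relatives, Mgstl was the 1 that passed. Mgstl, a microsomal glutathione transferase, was at 903 and 792 FPKM in ND-75-i and 474 and 536 FPKM in Con (log2 change 0.75, limma adjusted p = 0.046). That call was lost after median-ratio rescaling (0.0787) and quantile normalization (0.166). Another 4 had both ND-75-i values above Con without passing, an order that 53.7% of all genes tested had. Clic was at 31.8 and 31.7 FPKM in ND-75-i and 21.9 and 21.5 FPKM in Con (0.53, adjusted p = 0.0507), and gfzf at 11.4 and 11.5 FPKM in ND-75-i and 6.36 and 6.94 FPKM in Con (0.71, adjusted p = 0.0563). CG33178 differed by 0.88 (adjusted p = 0.0966) and Ef1gamma, a translation elongation factor subunit, by 0.29 (0.117), and CG33177 was too low to be tested. The sepia gene se, an Omega class gene of eye pigment synthesis, was not tested either and was listed at 0 in both ND-75-i libraries and at 0.119 and 0.349 FPKM in Con.

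Genes that supply glutathione were mixed. Of 8 tested from a list of 9, 2 rose and 1 fell, where 7.76% of all genes rose and 1.09% fell. Gclc, the catalytic subunit of the first enzyme of glutathione synthesis, was at 14.5 and 12.9 FPKM in ND-75-i and 5.89 and 6.14 FPKM in Con (log2 change 1.07, SE 0.136, limma adjusted p = 0.0325). Trxr-1, which keeps glutathione reduced in flies through thioredoxin, was at 88.6 and 84.5 FPKM in ND-75-i and 48.5 and 56.6 FPKM in Con (0.71, adjusted p = 0.0435). Eip55E, the cystathionine gamma-lyase gene that makes cysteine, fell, at 119 and 116 FPKM in ND-75-i and 213 and 232 FPKM in Con (-0.92, SE 0.0864, adjusted p = 0.022). Cbs, listed as CG1753, the cystathionine beta-synthase gene, had the largest difference of the list without passing, at 54.3 and 33.8 FPKM in ND-75-i and 8.48 and 13.6 FPKM in Con (1.90, SE 0.339, adjusted p = 0.0535). Gclm, the modifier subunit partner of Gclc, was at 55.6 and 49.1 FPKM in ND-75-i and 33.9 and 36.3 FPKM in Con (0.56, adjusted p = 0.0595). Both had groups apart with ND-75-i on top. The glutathione synthase genes did not pass. Gss1, listed as GS, was at 28.4 and 40.3 FPKM in ND-75-i and 49.5 and 53.2 FPKM in Con, and Gss2, listed as CG32495, was at 27.9 and 33.9 FPKM in ND-75-i and 45.4 and 44.5 FPKM in Con. After median-ratio rescaling the calls of Gclc (0.0525) and Trxr-1 (0.0844) were lost and that of Eip55E (0.023) was kept.

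Of 5 regulators of detoxification, 1 rose, a count too small to set apart from the 7.76% of all genes. It was ref(2)P, the p62 homologue, at 107 and 112 FPKM in ND-75-i and 78.7 and 77.6 FPKM in Con (log2 change 0.48, limma adjusted p = 0.048, and 0.296 after median-ratio rescaling). cnc was at 43.1 and 44.1 FPKM in ND-75-i and 44.5 and 41.6 FPKM in Con, and overlapped. Keap1 (7.03 and 4.79 FPKM in ND-75-i, 3.51 and 4.46 FPKM in Con), maf-S (37.8 and 35.4 FPKM in ND-75-i, 31.0 and 28.7 FPKM in Con) and the nuclear receptor gene Hr96 (9.50 and 9.23 FPKM in ND-75-i, 7.68 and 7.29 FPKM in Con) did not pass.

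Of 6 genes that supply UDP-sugars, 1 rose, where 7.76% of all genes did, and after median-ratio rescaling 0 did (before adjustment 3 were higher at p under 0.05), where 3.46% of all genes did. It was Pgm, which makes glucose 1-phosphate, at 287 and 229.9 FPKM in ND-75-i and 140.7 and 144 FPKM in Con (log2 change 0.85, limma adjusted p = 0.0443, and 0.0839 after median-ratio rescaling). UGP, which makes UDP-glucose, was at 124 and 107 FPKM in ND-75-i and 85.8 and 85.1 FPKM in Con (adjusted p = 0.0832). sgl, the UDP-glucose dehydrogenase gene, was at 13.9 and 12.9 FPKM in ND-75-i and 5.72 and 7.80 FPKM in Con (0.0644). Of 6 tested sulfotransferase and conjugate exporter genes, limma called 0 (before adjustment 3 were higher at p under 0.05), voom weights also gave 0, and quantile normalization called 1.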

How the data were processed

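The authors deposited 1 FPKM table per library, in which each gene also has bounds and a status, per the file headers. The submitters' processing notes name Bowtie 0.12.2. Quantifier, annotation, strand setting, treatment of shared reads and genome build: not given in the sources used here. Start coordinates are as deposited plus 1. Current names came from a RefSeq release 6 gene table, used for names only, where all 40 members matched. No label tells whether replicates are separate crosses, so p-values measure only how these samples vary, and that variation may be technical.

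Symbols that were OK in every library (13882, with lines of one symbol summed) and reached 1 FPKM in at least 2 libraries were tested, 10024 genes. Values on the log2(FPKM + 1) scale went into limma 3.58.1 (R 4.3.3) with group as covariate, an intensity trend, two-sided tests and Benjamini-Hochberg adjustment over all genes, at a threshold of 0.05. Residual degrees of freedom were 2 and prior ones 1.95. The procedure was tested on simulated data. Implied fragments are the squared ratio of an FPKM to 0.5 of its upper half-width. Of 89 member values under 200 fragments, 98.9% were whole within 0.1. They cover counting error only.

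Members and lists were chosen with earlier results of these data known. The rule for named genes took called members, in each class the 3 most abundant and the 2 most changed, untested members, up to 3 called genes per list and the 2 most abundant markers of each list. All other genes were named after their values were seen. A planned promoter motif search was not run. Alternatives were other scalings, pseudocounts (0.1 and 5) and low filters, the replicate number as a block and each library left out. Voom weights were added after the data were seen. Summaries and plots used Python 3.11.15 with pandas 2.3.3, matplotlib 3.10.9 and NumPy 2.4.6.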

Additional observations from a re-analysis of the deposited data

How the results depend on the processing

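Of 29 tested members, 3 changed sign after median-ratio rescaling, none of them called: GstD5 (-0.161), GstD9 (-0.0467) and Ugt36Ba (-0.0305). GstD9 was at -0.0287 after quantile normalization, and GstD5 at -0.0293 with a pseudocount of 0.1 and -0.0587 with voom weights. With 1 library left out, the log2 change ran from -0.303 to 0.311 for GstD5, -0.20 to 0.0195 for GstE6, -0.238 to 0.0868 for Ugt, -0.121 to 0.344 for Ugt36Ba and -0.103 to 0.915 for Ugt86Di. Calls then numbered 0 over all genes and in every class. Before adjustment, at an unadjusted p under 0.05, 1703 to 2839 genes were higher and 344 to 1633 lower. For GstD these counts were 1 to 2 and 2 to 5, for GstE 3 and 1 to 3, for Ugt 6 to 7 and 0. The adjusted p of the 11 called members ran from 0.0516 to 0.168. These fits have 1 residual degree of freedom with 1 library alone in a group, so a lost call there says nothing of stability. The fit with the replicate number as a block also has 1, but with 2 libraries in each group.

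Calls over all genes numbered 887 with the deposited values, 484 after median-ratio rescaling and 258 with no low filter. With no low filter limma called 2 members, CG5724 and Ugt86Dd, and 0 GstD, GstE or other Gst genes, of which 2, 4 and 0 were higher and 4, 1 and 1 lower before adjustment (unadjusted p under 0.05), and voom weights called 1 GstD, 1 GstE and 1 other Gst gene. Median-ratio rescaling called 0 GstE genes (2 higher and 2 lower before adjustment), and a mean of at least 5 FPKM called 4. Voom weights called 7 members in all. With the replicate number as a block limma called 0 other Gst genes (GstS1, adjusted p = 0.0573), GstE8 missed the threshold (0.0566), and GstD10 (0.039) and GstE9 (0.0362) passed. Deviations of same-numbered libraries correlated at 0.357. With 2 libraries per group this value is equal for both numbers by construction, though its size and sign are not fixed. The labels do not say whether same-numbered libraries were handled together, and this was not tested. The cause of the changed calls was not tested. Depth limits the members with few fragments, among them GstD2, GstD4, GstD5, GstE2, Ugt36Ba and Ugt86Di, and in Con also GstD7, CG5724 and Ugt35b.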
